A study of Mus musculus with 4 samples.

Results

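The genes examined here were 38 genes of glucose breakdown and its transport: the facilitative glucose carriers, the enzymes from hexokinase to lactate dehydrogenase, the Pfkfb regulators of phosphofructokinase, pyruvate dehydrogenase kinases 1 to 3 and the monocarboxylate transporters that carry lactate across membranes. They were chosen by name, as every non-control probe whose gene name or a synonym of it was on the list, and all 38 were measured, among 17638 genes, through 70 of 41174 probes. The groups were kidneys of Th3 mice, a mouse model of beta-thalassemia in which both adult beta-globin genes, beta-major and beta-minor, were deleted, and kidneys labelled as control. Each of 4 two-colour oligonucleotide arrays compared 1 Th3 with 1 control RNA sample. On arrays 1 and 2 the dye Cy5 marked Th3, and on arrays 3 and 4 it marked control, with Cy3 in the other channel. The age, sex and zygosity of the animals are not given in the sources used here. Whether the samples of a group are different animals is not stated, so p-values cover the spread between these samples only, which may be technical.

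Glycolysis splits glucose into pyruvate in the cytosol and yields ATP without oxygen. Lactate dehydrogenase turns pyruvate into lactate, which leaves or enters cells with a proton through the monocarboxylate transporters, and the pyruvate dehydrogenase kinases hold pyruvate back from the mitochondria by switching off pyruvate dehydrogenase. In the kidney the proximal tubule burns mainly fatty acids and makes glucose, whereas the distal segments and the medulla rely more on glycolysis. Slc16a3, which encodes the lactate exporter MCT4, and many glycolytic genes are textbook targets of the hypoxia-inducible factors.

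All values are log2 ratios of Th3 over control unless an intensity is named, and ± is the SD over 4 arrays. A gene was called at a Benjamini-Hochberg adjusted p under 0.05 in a limma fit over all genes that also held a dye term. That term removes any difference between arrays 1 and 2 on one side and arrays 3 and 4 on the other, and dye and pair of arrays cannot be told apart. The p-values therefore measure the spread within each pair, and the p without the dye term is given where it ends the call of a named member or pathway gene. As a check of the labels, the 4 probes of Hbb-b1, the deleted beta-major gene, stood at 8.04% to 14.6% of control. In each channel 61.8% to 72.2% of probes exceeded background clearly and no spot was saturated, and precision is limited by having 4 arrays. All 38 members passed the filter on dim probes and were well above background in both channels of all 4 arrays. The log2 ratios of all genes correlated at 0.67 between arrays 1 and 2 and at 0.71 between arrays 3 and 4, against 0.43 to 0.53 between arrays of different dye orientation.

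Of the 38 members, 19 were higher in Th3, where 10.9% of all genes tested were, and 4 (10.5%) were lower, where 10.6% of all genes were. The other 15 did not pass; a call in either direction was made for 21.5% of all genes. The median log2 ratio of the members was 0.18, and that of all genes was 0.0012. A ratio above 0 on all 4 arrays was found for 17 members, a pattern that 19.7% of all genes showed, and a ratio below 0 on all 4 for 5 members, which 17.4% of all genes showed. Without the dye term 11 members were higher (6.25% of all genes) and 2 were lower (5.03% of all genes). With the 2 pairs of arrays as a random block in place of the dye term, no member was lower, where 3.14% of all genes were. In that fit 3.66% of all genes and 5 members were higher, the members being Slc16a3, Ldha, Pdk1, Slc2a3 and Pfkl. These 5 were also the members that passed under all 16 alternative settings.

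**Figure D1:**
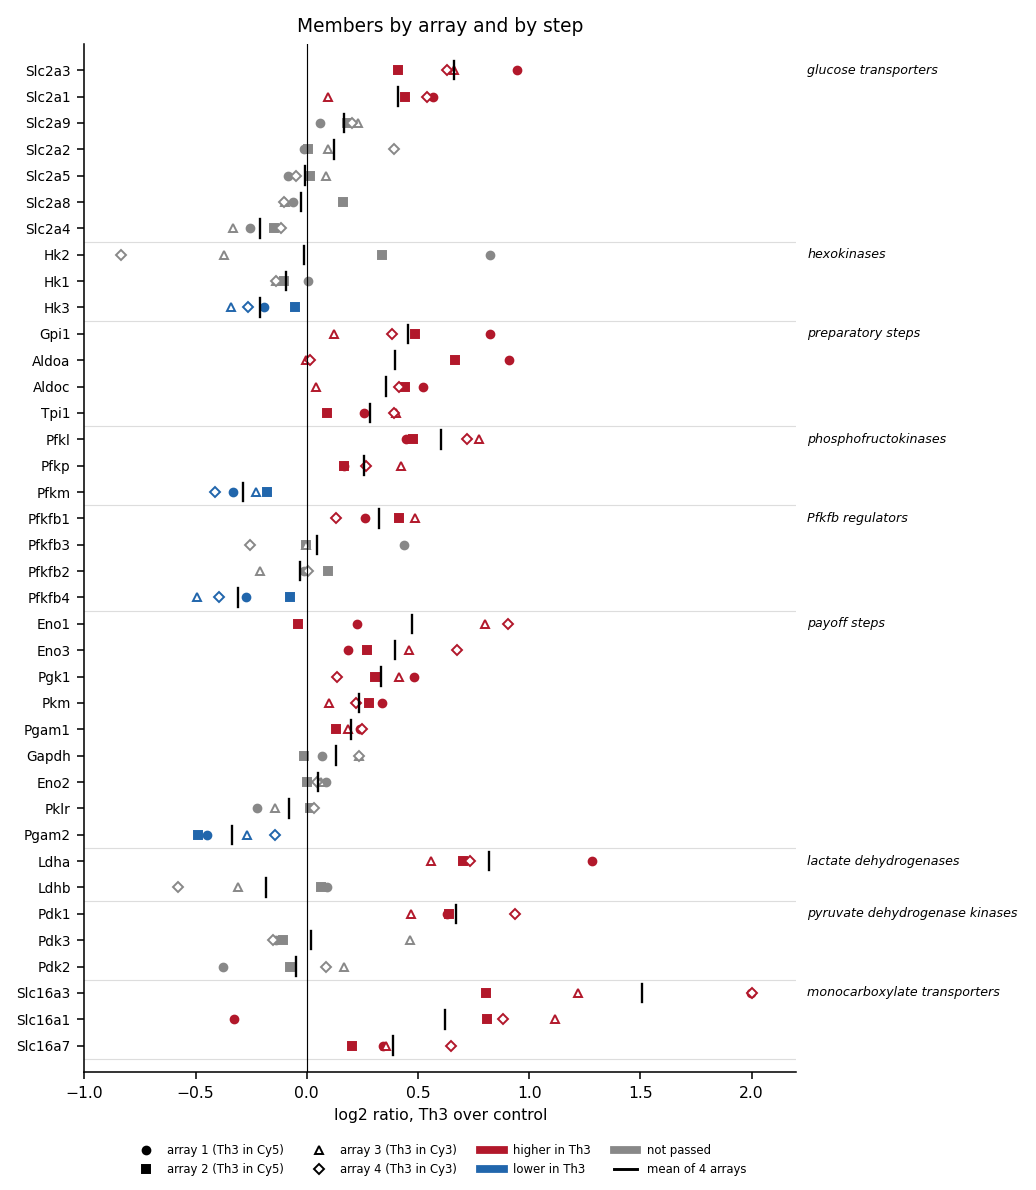
Log2 ratio of Th3 over control (horizontal axis) for the 38 members, grouped by step of the pathway. Each symbol is 1 array, filled where Th3 carried Cy5 and open where it carried Cy3, the black tick is the mean of 4 arrays, and colour gives the call; all 4 symbols of Slc16a3 lie at 0.81 or above, whereas those of Hk2 spread from -0.83 to 0.83.

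Slc16a3, which exports lactate from glycolytic cells, had the largest ratio among the members. Its intensity, on the log2 scale after normalisation, was 10.57, 9.56, 9.52 and 10.63 in the Th3 samples of arrays 1 to 4, against 8.57, 8.75, 8.30 and 8.63 in the control samples. All Th3 samples lay above all control samples, and the Th3 samples of arrays 1 and 4 stood about 1 log2 unit above those of arrays 2 and 3. The log2 ratio was 2.00, 0.81, 1.22 and 2.00 on the 4 arrays, with a mean of 1.51 ± 0.59, a 2.84-fold higher level in Th3 (adjusted p = 0.0059). The authors' deposited table gives it a fold of 3.16 with an adjusted p of 0.0034. It rests on 1 probe, which lies at chr11:120774799-120774858 on the plus strand of mm8, the mouse build of the array annotation. The first 30 of its 60 bases are shown because the largest difference in the pathway was read from this oligonucleotide, next to those of the probe for Pgam2, the member with the largest decrease. The Pgam2 probe spans chr11:5701822-5703040 on the minus strand, 1219 bases of genome for 60 bases of probe.
Slc16a3: ctgggcagtggtctgttcaccctgagtccc
Pgam2: atgggaacagccttcggggcattgtgaaac

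Both other monocarboxylate transporters were higher as well, each with a limit in its data. Slc16a1 (MCT1), which carries lactate and ketone bodies in either direction, had log2 ratios of -0.33, 0.81, 1.12 and 0.88, a mean of 0.62 ± 0.64 (adjusted p = 0.0444). Its Th3 intensities were 10.39, 11.38, 11.59 and 11.34 against 10.72, 10.57, 10.47 and 10.46 in control, so that the Th3 sample of array 1 lay below every control sample and the other Th3 samples lay above all of them. A further probe of Slc16a1 gave -0.14, 1.00, 0.99 and 0.70, with array 1 again on the other side of 0. The remaining, dim probe gave -0.21, 0.06, 0.38 and 0.16, a mean of 0.09 ± 0.24. No Slc16a1 probe passed when p-values were adjusted over all probes (0.0517, 0.0508 and 0.388). The call was lost under 9 of 16 alternatives, among them the fit without a dye term (adjusted p = 0.121). The fitted log2 ratio of Slc16a1 was 0.90 without array 1 and 0.34 without array 2. Each of these fits leaves 1 array alone in its dye orientation, so its p-value does not measure the spread of that array.

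Slc16a7 (MCT2), a high-affinity carrier that takes up lactate and pyruvate, had log2 ratios of 0.34, 0.20, 0.36 and 0.65 on its brightest probe, a mean of 0.39 ± 0.19 (adjusted p = 0.0116). Its 4 Th3 samples lay between 13.22 and 13.55 and its 4 control samples between 12.80 and 13.21 on the log2 intensity scale, without overlap. It was the only called member whose kept probes differed in sign: the 2 dimmer probes gave -0.01 ± 0.09 and -0.06 ± 0.05. With the mean of all kept probes the log2 ratio of Slc16a7 was 0.11 (adjusted p = 0.201). The first 30 bases of the 3 probes are shown because the call depends on which of them is read. On chromosome 10 of mm8, minus strand, the brightest lies at chr10:124630788-124630847, the second at chr10:124629580-124629639 and the dimmest at chr10:124625391-124625450, so all 3 target different stretches.
Brightest Slc16a7 probe: tgctcatctgcgcacctgagttgtgatgaa
Second Slc16a7 probe: gctcattttccaaacctaaagtgtctagaa
Dimmest Slc16a7 probe: gccacattgtattgaattacatttgagtaa

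Of the lactate dehydrogenase subunits, Ldha was higher and Ldhb did not pass. Ldha, the subunit whose tetramers favour making lactate from pyruvate, had log2 ratios of 1.28, 0.70, 0.56 and 0.73, a mean of 0.82 ± 0.32 or 1.76-fold (adjusted p = 0.0042). Its Th3 intensities were 15.85, 15.59, 15.55 and 15.94 and its control intensities 14.57, 14.88, 14.99 and 15.20, without overlap. The other Ldha probe gave 0.60 ± 0.17, also called (adjusted p over probes 0.0062). Ldhb, the subunit that favours lactate oxidation, had 0.09, 0.06, -0.31 and -0.58, a mean of -0.18 ± 0.32 that did not pass (adjusted p = 0.0869), with both arrays of each dye orientation on the same side of 0. The ratio of Ldha exceeded that of Ldhb on 4 of 4 arrays, by 1.00 ± 0.31 log2 units (exact two-sided sign-flip permutation p = 0.125, the smallest that 4 arrays allow).

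**Figure D2:**
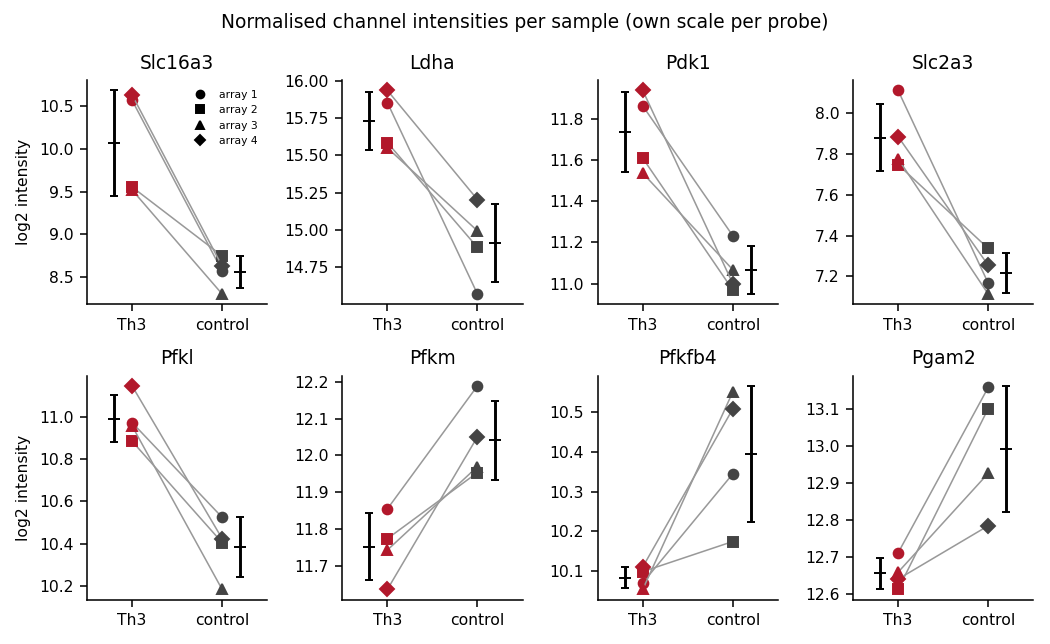
Normalised log2 intensity of 8 members in the 4 Th3 samples (left, red) and the 4 control samples (right, grey), with a line joining the samples of 1 array and bars for the mean and SD of each group; each probe has its own vertical scale that does not start at 0, so levels of different genes cannot be compared. The samples of the 2 groups do not overlap in any of the 8: Slc16a3, Ldha, Pdk1, Slc2a3 and Pfkl lie higher in Th3, and Pfkm, Pfkfb4 and Pgam2 lie lower.

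Among the 3 pyruvate dehydrogenase kinases, Pdk1 was higher and the other two did not pass. Pdk1 had log2 ratios of 0.63, 0.64, 0.47 and 0.94, a mean of 0.67 ± 0.20 (adjusted p = 0.0046). Its Th3 intensities were 11.86, 11.61, 11.54 and 11.94 against 11.23, 10.97, 11.07 and 11.00 in control. All Th3 samples were above all control samples. The second Pdk1 probe gave a larger log2 ratio of 1.15 ± 0.28 (adjusted p over probes 0.0020), so the size of the difference depends on the probe. Pdk2, the kinase with the broadest tissue range, had a mean of -0.05 ± 0.24 (adjusted p = 0.644). The 2 kept probes of Pdk3 gave -0.14, -0.10, 0.46 and -0.15 on the brighter probe and -0.24, -0.10, 0.35 and -0.01 on the dimmer, with means of 0.02 ± 0.30 and -0.00 ± 0.25; array 3 alone was above 0 on both. The ratio of Pdk1 exceeded that of Pdk2 on 4 of 4 arrays by 0.72 ± 0.30 and that of Pdk3 by 0.65 ± 0.46 (exact sign-flip p = 0.125 for each).

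Of the 7 facilitative glucose transporters, 2 were higher and 5 did not pass. Slc2a3 (GLUT3), a high-affinity carrier best known from neurons, had log2 ratios of 0.94, 0.41, 0.66 and 0.63, a mean of 0.66 ± 0.22 (adjusted p = 0.0059). Its Th3 intensities of 8.11, 7.75, 7.78 and 7.89 lay above its control intensities of 7.17, 7.34, 7.11 and 7.25. This probe is dim, and its log2 ratio depended on the background correction: it was 1.15 with the scanner software's processed signals. Slc2a1 (GLUT1), the widespread basal glucose carrier, had log2 ratios of 0.57, 0.44, 0.10 and 0.54, a mean of 0.41 ± 0.22 (adjusted p = 0.0173). Its Th3 samples spanned 13.18 to 13.73 and its control samples 12.97 to 13.16, without overlap.

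The other five glucose transporters lay closer to 0. Slc2a4 (GLUT4), the insulin-regulated carrier of muscle and fat, had -0.26, -0.15, -0.33 and -0.12, a mean of -0.21 ± 0.10 that missed the threshold (adjusted p = 0.0521) although all 4 arrays were below 0. Slc2a9, a urate transporter by function, had a mean of 0.17 ± 0.08 with all 4 arrays above 0 (adjusted p = 0.0703). Its dimmer kept probes gave 0.04 ± 0.06 and 0.01 ± 0.04. Slc2a2 (GLUT2), the low-affinity carrier of the basolateral proximal tubule, had a mean of 0.12 ± 0.19 (adjusted p = 0.239). The fructose carrier Slc2a5 (-0.01 ± 0.07) and Slc2a8 (-0.02 ± 0.13) had log2 ratios of either sign between arrays. The log2 ratio of Slc2a1 was above that of Slc2a4 on 4 of 4 arrays, by 0.62 ± 0.16 (exact sign-flip p = 0.125).

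The 3 hexokinases, which trap glucose as glucose 6-phosphate, all had a mean below 0, and 1 of them was called lower. Hk3 had log2 ratios of -0.19, -0.05, -0.34 and -0.26, a mean of -0.21 ± 0.12 (adjusted p = 0.0396). That call was lost without the dye term (adjusted p = 0.0900) and without any single array (adjusted p from 0.0624 to 0.240), and its Th3 and control intensities overlapped, at 6.53 to 7.09 against 6.58 to 7.35. Hk1, the broadly expressed form, had 0.01, -0.10, -0.14 and -0.14 on its brightest probe, a mean of -0.09 ± 0.07 (adjusted p = 0.256), and its 5 kept probes had means from -0.21 to 0.02. Hk2, the inducible form of muscle, had the widest spread of any member, with 0.83 and 0.34 on arrays 1 and 2 and -0.37 and -0.83 on arrays 3 and 4, a mean of -0.01 ± 0.74 (adjusted p = 0.957). Its sign followed the dye orientation, and the dye term of Hk2 itself had an adjusted p of 0.0658.

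The phosphofructokinase subunits, which catalyse the committed step of glycolysis, went in different directions. Pfkl, the liver-type subunit, had log2 ratios of 0.45, 0.48, 0.77 and 0.72, a mean of 0.60 ± 0.17 or 1.52-fold, with the smallest adjusted p of the members (0.0017). Its Th3 intensities were 10.97, 10.88, 10.96 and 11.15 against 10.52, 10.41, 10.18 and 10.42 in control. Pfkp, the platelet-type subunit, had 0.17, 0.17, 0.42 and 0.27, a mean of 0.26 ± 0.12 (adjusted p = 0.0223, but 0.0549 without the dye term). The dimmer Pfkp probes gave 0.39 ± 0.26 (adjusted p over probes 0.0402) and 0.18 ± 0.19 (adjusted p over probes 0.171, not called). Pfkm, the muscle-type subunit, was lower with -0.33, -0.18, -0.23 and -0.41, a mean of -0.29 ± 0.11 or 18.1% below control (adjusted p = 0.0208). Its Th3 samples lay at 11.86, 11.77, 11.74 and 11.64 and its control samples at 12.19, 11.95, 11.97 and 12.05, without overlap. The log2 ratio of Pfkl was above that of Pfkm on 4 of 4 arrays, by 0.89 ± 0.21 (exact sign-flip p = 0.125). The Pfkm call was lost under median centring of the arrays in place of loess, with Agilent processed signals and without array 1 or 4, where the mean stayed below 0.

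The Pfkfb enzymes make and break fructose 2,6-bisphosphate, the strongest activator of phosphofructokinase. Pfkfb1, known from liver and muscle, had log2 ratios of 0.26, 0.41, 0.49 and 0.13, a mean of 0.32 ± 0.16 (adjusted p = 0.0263), with Th3 samples at 8.49 to 8.60 and control samples all at 8.47 or below. Pfkfb4 was lower, with -0.27, -0.08, -0.50 and -0.40, a mean of -0.31 ± 0.18 or 19.3% below control (adjusted p = 0.0153, but 0.0543 without the dye term). Its Th3 samples lay within 10.05 to 10.11, and its control samples within 10.17 to 10.55, so the control samples spread more widely than the Th3 samples. The Pfkfb4 call was also lost under median centring, with the pairs of arrays as a random block and without array 1. Pfkfb3, the form with the highest kinase activity, had 0.44, -0.00, -0.00 and -0.25, a mean of 0.04 ± 0.29 (adjusted p = 0.756). Pfkfb2 had -0.01, 0.10, -0.21 and 0.00, a mean of -0.03 ± 0.13 (adjusted p = 0.763), and its 4 kept probes had means from -0.08 to 0.03.

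The 4 genes of the remaining preparatory steps, from glucose 6-phosphate isomerase to triose phosphate isomerase, were all higher with the dye term, and only Gpi1 kept the call without it. Gpi1, the isomerase, had log2 ratios of 0.82, 0.49, 0.12 and 0.38, a mean of 0.45 ± 0.29 (adjusted p = 0.0109). Its probe was spotted 10 times, and the spots of an array differed by an SD of only 0.02 to 0.05, against 0.29 between arrays. A dim second Gpi1 probe gave 0.06 ± 0.08. Aldoa, the aldolase of muscle and most tissues, had 0.91, 0.67, -0.00 and 0.02, a mean of 0.40 ± 0.46 (adjusted p = 0.0081, but 0.165 without the dye term). Its ratio was carried by the arrays with Th3 in Cy5, and its dye term was itself called (adjusted p = 0.0499). The other Aldoa probe was above 0 on all arrays, at 0.54, 0.36, 0.27 and 0.30, with a mean of 0.37 ± 0.12 (adjusted p over probes 0.0096).

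Aldoc, the aldolase best known from brain, had log2 ratios of 0.52, 0.44, 0.04 and 0.42, a mean of 0.36 ± 0.21 (adjusted p = 0.0195, but 0.05001 without the dye term, just over the threshold). Its second probe gave 0.45 ± 0.19 (adjusted p over probes 0.0154). Tpi1, triose phosphate isomerase, had 0.26, 0.09, 0.40 and 0.39, a mean of 0.29 ± 0.15 (adjusted p = 0.0163, but 0.0502 without the dye term). The Th3 samples of Tpi1 lay at 15.12 to 15.50 and the control samples at 14.98 to 15.11, without overlap, whereas those of Aldoa and Aldoc overlapped.

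Of the 9 genes of the payoff steps, from glyceraldehyde 3-phosphate to pyruvate, 5 were higher and 1 was lower. Pgk1, phosphoglycerate kinase, had log2 ratios of 0.48, 0.31, 0.41 and 0.14, a mean of 0.33 ± 0.15 (adjusted p = 0.0187), and a second, overlapping probe gave 0.30 ± 0.13. The first of these probes was spotted 10 times, with an SD of 0.04 to 0.05 between spots of an array. Th3 samples of Pgk1 lay at 15.18 to 15.37 and control samples at 14.83 to 15.05. Eno3, the muscle enolase, had 0.19, 0.27, 0.46 and 0.67, a mean of 0.40 ± 0.22 (adjusted p = 0.0076), with Th3 samples at 10.09 to 10.34 above control samples at 9.66 to 10.02.

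Eno1, the widespread enolase, had log2 ratios of 0.23 and -0.04 on arrays 1 and 2 and 0.80 and 0.91 on arrays 3 and 4, a mean of 0.47 ± 0.45 (adjusted p = 0.0059, but 0.107 without the dye term). The split by pair of arrays ran opposite to that of Aldoa, whose high arrays were 1 and 2. Pkm, the pyruvate kinase of muscle and most tissues other than liver (named Pkm2 in the files), had 0.34, 0.28, 0.10 and 0.22, a mean of 0.24 ± 0.10 (adjusted p = 0.0268, but 0.0589 without the dye term). A second Pkm probe gave 0.14 ± 0.05 and was not called (adjusted p over probes 0.107), and the Pkm call was lost under 6 of 16 alternatives. Pgam1, the widespread phosphoglycerate mutase, had 0.24, 0.13, 0.19 and 0.25, a mean of 0.20 ± 0.05 (adjusted p = 0.0423, but 0.0661 without the dye term). Its Th3 samples did not overlap the control samples, at 15.12 to 15.28 against 14.93 to 15.03, while the call was lost under 8 of 16 alternatives.

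Pgam2, the muscle-type phosphoglycerate mutase, was lower: its log2 ratios were -0.45, -0.49, -0.27 and -0.14, a mean of -0.34 ± 0.16 or 20.8% below control (adjusted p = 0.0091). Th3 samples stood at 12.71, 12.61, 12.66 and 12.64 and control samples at 13.16, 13.10, 12.93 and 12.78. The Th3 samples were closely alike, and every control sample was above them. The log2 ratio of Pgam1 was above that of Pgam2 on 4 of 4 arrays, by 0.54 ± 0.14 (exact sign-flip p = 0.125). Eno2, the neuronal enolase, was near 0 on both of its probes, at 0.08, -0.00, 0.06 and 0.05 on the brighter (mean 0.05 ± 0.04, adjusted p = 0.550) and at -0.06 ± 0.02 on the dimmer. Pklr, the pyruvate kinase of liver and red cells, had a mean of -0.08 ± 0.13 (adjusted p = 0.431), and the log2 ratio of Pkm was above it on 4 of 4 arrays by 0.31 ± 0.17 (exact sign-flip p = 0.125).

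Gapdh, the glyceraldehyde 3-phosphate dehydrogenase often used as a reference gene, did not pass, with log2 ratios of 0.07, -0.01, 0.23 and 0.24 and a mean of 0.13 ± 0.12 (adjusted p = 0.121). The only probe that carries its name in the files is dim, at 6.82 to 7.08 in Th3 samples and 6.68 to 6.85 in control samples. A bright probe that the files name LOC380687, matched to Gapdh by its accession, overlaps it on the minus strand of mm8: it spans chr6:125127706-125127875, 170 bases of genome for 60 of probe, whereas the named probe covers chr6:125127708-125127767 without a gap. Both are printed whole because they show what the named probe reads; their longest shared run of 14 bases is in capitals, and the letters before it differ. The named probe covers genome that the bright probe skips, so it may read an intron, and its ratio may not stand for the spliced Gapdh messenger.
Gapdh: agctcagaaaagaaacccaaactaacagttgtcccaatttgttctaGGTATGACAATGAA
LOC380687: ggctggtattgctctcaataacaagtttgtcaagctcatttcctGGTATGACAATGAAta
The LOC380687 probe gave 0.26, 0.20, -0.03 and -0.03, a mean of 0.10 ± 0.15, and a further bright probe matched by accession and named MGC68323, which the annotation places on chromosome 1, gave 0.13 ± 0.09. Neither passed over all probes (adjusted p = 0.219 and 0.149).

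**Figure D3:**
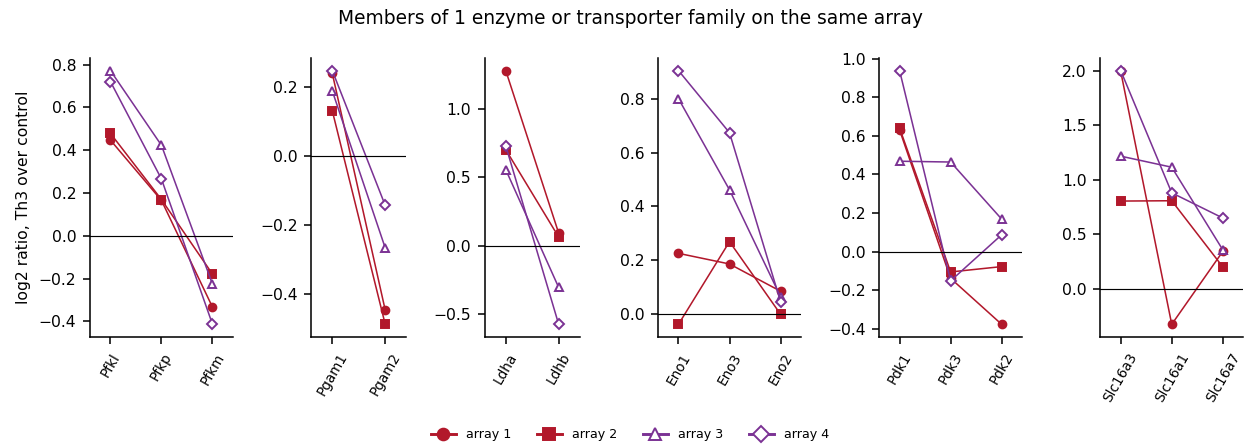
Log2 ratio of Th3 over control (vertical axis, its own scale in each panel) for the members of 6 families, with 1 line per array joining the members measured on it; red filled symbols are arrays 1 and 2 and purple open symbols arrays 3 and 4. Pfkl lies above Pfkm, Pgam1 above Pgam2, Ldha above Ldhb and Pdk1 above Pdk2 on all 4 arrays, while Slc16a3 lies just below Slc16a1 on array 2.

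Between members of a family, 14 pairs of log2 ratios were compared, with no pair of hexokinases or of Pfkfb regulators among them. In each pair the member with the higher mean is named first, so the direction itself is not a result. The first named was above the second on all 4 arrays in 11 of them. Aldoa was above Aldoc on 2 arrays (exact sign-flip p = 1), and Eno1 was above Eno2 and Slc16a3 above Slc16a1 on 3 arrays each (exact sign-flip p = 0.25). The smallest Benjamini-Hochberg adjusted p over the 14 was 0.159 (exact sign-flip permutation test). With 4 arrays this test cannot give a p under 0.125, so no pair could have passed. Nothing is concluded from it.

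The Th3 and control samples did not overlap for 14 members that were above control (11.4% of all genes showed this) and for 3 that were below (9.63% of all genes). The 14 were made up of 13 called members and Slc2a9, and the 3 were Pfkm, Pfkfb4 and Pgam2. Of the 19 increases, 6 reached 1.5-fold: Slc16a3, Ldha, Pdk1, Slc2a3, Slc16a1 and Pfkl. Among 10 called members with several kept probes, 6 had at least 2 probes called the same way at an adjusted p under 0.05 over all probes. None had probes called in opposite directions at that threshold. The same share was not computed over all genes. The 2 Pgk1 probes, counted among these, overlap on the genome and are not independent readings. Leaving out 1 array leaves another alone in its dye orientation. The counts of members called in those fits are given in the last section, beside the counts over all genes. Without array 1 the calls of Hk3, Pfkm, Pfkp, Pfkfb4, Tpi1, Pgam1 and Pkm were lost, and without array 2 those of Hk3, Pfkp, Pfkfb1, Pgam1 and Pkm. Without array 3 those of Hk3, Pfkp, Pfkfb1, Pgk1, Pgam1 and Slc16a1 were lost, and without array 4 those of Hk3, Pfkm, Pgam1, Pkm and Slc16a1. The authors' deposited table gives 9 members a positive fold and 1, Pgam2, a negative fold with an adjusted p under 0.05 on every spot of the probe used here. Over all 37205 non-control spots with a fold and a p, the authors' deposited table gives 4.07% a positive and 4.11% a negative fold at that threshold.

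**Figure D4:**
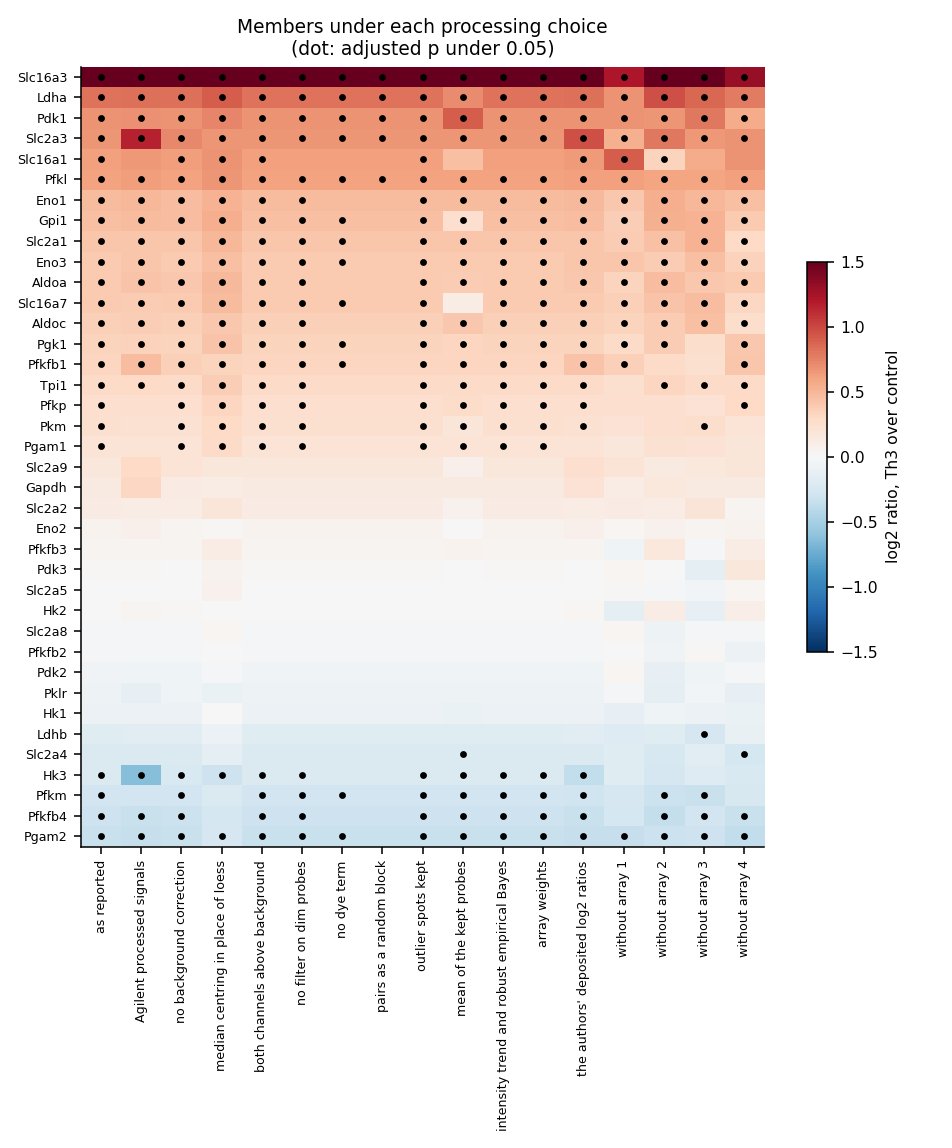
Log2 ratio of Th3 over control (colour) for the 38 members, ordered by ratio from top to bottom, as reported and under 16 other processing choices; a dot marks an adjusted p under 0.05. Slc16a3, Ldha, Pdk1, Slc2a3 and Pfkl carry a dot in every column, and no call changes direction.

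Promoter windows of RefSeq (build GRCm38.p6, 250 bases before to 50 after each start) were found for 35 members. They were searched for ACGTG, the core letters of the hypoxia response element, and for GCGTG, which the same factors can also bind, each on both strands; a palindromic CACGTG counts at 2 overlapping places. At least 1 window held ACGTG for 9 of 17 members that were higher, 2 of 4 that were lower and 7 of 14 that did not pass. Over all 35 members the share was 51.4%, and over all 27025 genes of the promoter table it was 21.8%. The share with GCGTG was 57.1% of the 35 members and 35.2% of all genes. The members had 55 windows for 35 genes, more per gene than the 32851 windows of all genes, which gives them more chances of a match. By window the share with ACGTG was 40% for members and 19.6% for all, and with GCGTG 47.3% and 32.4%. A match of letters is a description, not a binding site.

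The windows of the 3 members with the largest increases and the 2 with the largest decreases are shown with both motifs in capitals. They were chosen by size of the ratio. Hk3 and Pfkm, the other lower members, hold ACGTG in at least 1 window and are not shown. ACGTG was found for 52.9% of the higher and 50% of the lower members with a window, so the windows shown do not stand for their groups. The first listed window is given where a gene has several. Slc16a3 (chr11:120948817-120949116, plus strand) holds 2 matches of ACGTG, Ldha (chr7:46845554-46845853, plus strand) holds 5 of ACGTG and 2 of GCGTG, and Pdk1 (chr2:71872974-71873273, plus strand) holds 2 of GCGTG. Pgam2 (chr11:5803747-5804046, minus strand) holds none of these letters in the window, and Pfkfb4 (chr9:108991652-108991951, plus strand) holds 1 of GCGTG.
Slc16a3 promoter: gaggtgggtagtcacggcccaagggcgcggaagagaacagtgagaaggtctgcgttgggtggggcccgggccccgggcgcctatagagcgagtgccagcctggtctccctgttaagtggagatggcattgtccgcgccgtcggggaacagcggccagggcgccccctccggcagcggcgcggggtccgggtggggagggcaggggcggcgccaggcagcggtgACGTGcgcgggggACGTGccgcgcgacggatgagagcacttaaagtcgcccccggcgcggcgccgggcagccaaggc
Ldha promoter: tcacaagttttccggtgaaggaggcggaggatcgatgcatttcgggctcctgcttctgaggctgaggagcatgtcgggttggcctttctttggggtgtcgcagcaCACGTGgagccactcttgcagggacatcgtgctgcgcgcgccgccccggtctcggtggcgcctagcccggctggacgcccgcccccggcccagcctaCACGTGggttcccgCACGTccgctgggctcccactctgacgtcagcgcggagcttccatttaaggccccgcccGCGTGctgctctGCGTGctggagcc
Pdk1 promoter: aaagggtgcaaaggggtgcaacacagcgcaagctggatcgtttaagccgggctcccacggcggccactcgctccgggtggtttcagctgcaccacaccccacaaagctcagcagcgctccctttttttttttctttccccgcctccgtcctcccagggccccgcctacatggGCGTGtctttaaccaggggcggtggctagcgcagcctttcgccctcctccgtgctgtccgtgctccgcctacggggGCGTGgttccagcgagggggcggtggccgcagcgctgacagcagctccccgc
Pgam2 promoter: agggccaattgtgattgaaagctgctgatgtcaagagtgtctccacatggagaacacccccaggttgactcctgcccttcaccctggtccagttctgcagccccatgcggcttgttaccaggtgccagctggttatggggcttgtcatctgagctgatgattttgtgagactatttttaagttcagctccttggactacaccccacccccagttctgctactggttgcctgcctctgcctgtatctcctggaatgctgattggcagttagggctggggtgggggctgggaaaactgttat
Pfkfb4 promoter: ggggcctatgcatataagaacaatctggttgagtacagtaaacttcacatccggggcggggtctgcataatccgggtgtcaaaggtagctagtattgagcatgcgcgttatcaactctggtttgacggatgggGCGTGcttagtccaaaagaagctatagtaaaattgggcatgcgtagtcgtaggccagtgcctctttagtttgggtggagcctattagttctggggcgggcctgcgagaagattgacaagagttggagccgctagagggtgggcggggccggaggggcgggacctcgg

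Other genes of sugar metabolism were looked at through 8 lists with 72 measured genes, of which 9 were higher and 13 were lower, where 10.9% and 10.6% of all genes were. Without the dye term 6 were higher and 6 lower. Their median log2 ratios ran from -0.15 to 0.22, against 0.18 for the members. In gluconeogenesis, the pathway by which the proximal tubule makes glucose, 4 of 8 genes were higher and the other four did not pass. Without the dye term 2 of these higher calls were left. Pck1, also on this list, was not among the genes tested. G6pc, which releases free glucose, had a log2 ratio of 0.58 ± 0.56 (adjusted p = 0.0046, but 0.103 without the dye term), the pyruvate carboxylase gene Pcx 0.42 ± 0.24 (adjusted p = 0.0054) and Fbp2, a fructose bisphosphatase of muscle, 0.39 ± 0.19 (adjusted p = 0.0189). Of 5 other glycolytic genes, Gckr, the inhibitor of glucokinase, was higher at 0.68 ± 0.27 (adjusted p = 0.0079) and Bpgm, which makes 2,3-bisphosphoglycerate in red cells, was lower at -0.30 ± 0.11 (adjusted p = 0.0136).

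Of 13 glycogen genes, Ppp1r3c, which targets a phosphatase to glycogen, was higher at 0.57 ± 0.19 (adjusted p = 0.0066), as was the branching enzyme Gbe1 at 0.43 ± 0.19 (adjusted p = 0.0091). Stbd1, a glycogen-binding protein, was lower at -0.46 ± 0.38 (adjusted p = 0.0318, but 0.0807 without the dye term), and 10 did not pass. Of 8 genes for fructose, galactose and sorbitol, Akr1b3 (aldose reductase, which makes sorbitol in the medulla) was lower at -0.73 ± 0.73 (adjusted p = 0.0117, but 0.108 without the dye term), Tkfc was lower at -0.37 ± 0.10 (adjusted p = 0.0092), and Galk1 was higher at 0.20 ± 0.03 (adjusted p = 0.0399, but 0.0625 without the dye term). In the pentose phosphate pathway 2 of 8 genes fell, Rpe at -0.31 ± 0.03 (adjusted p = 0.0101) and Taldo1 at -0.24 ± 0.04 (adjusted p = 0.0232).

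Of 10 genes for pyruvate import and pyruvate dehydrogenase, 1 passed: Pdha1, the catalytic subunit that the pyruvate dehydrogenase kinases phosphorylate, was lower at -0.48, -0.45, -0.30 and -0.50 on the 4 arrays, a mean of -0.44 ± 0.09 (adjusted p = 0.0056). All 4 arrays were below 0 for Pdha1, where all 4 were above 0 for Pdk1. Of 10 other sugar transporters, 4 were lower and 1 was higher. The sodium-coupled carriers Slc5a10 (-0.36 ± 0.37, adjusted p = 0.0450, but 0.139 without the dye term) and Slc5a3 (-0.30 ± 0.17, adjusted p = 0.0306, but 0.0549 without the dye term) were lower. Without the dye term 1 of the 4 lower calls of this list was left. Slc5a9 was higher (0.32 ± 0.17, adjusted p = 0.0293). Of 10 other lactate and monocarboxylate genes, Slc16a4 (-0.57 ± 0.77, adjusted p = 0.0186, but 0.205 without the dye term) and Slc5a8, a sodium-coupled lactate carrier of the tubule (-0.32 ± 0.30, adjusted p = 0.0163, but 0.117 without the dye term), were lower.

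**Figure D5:**
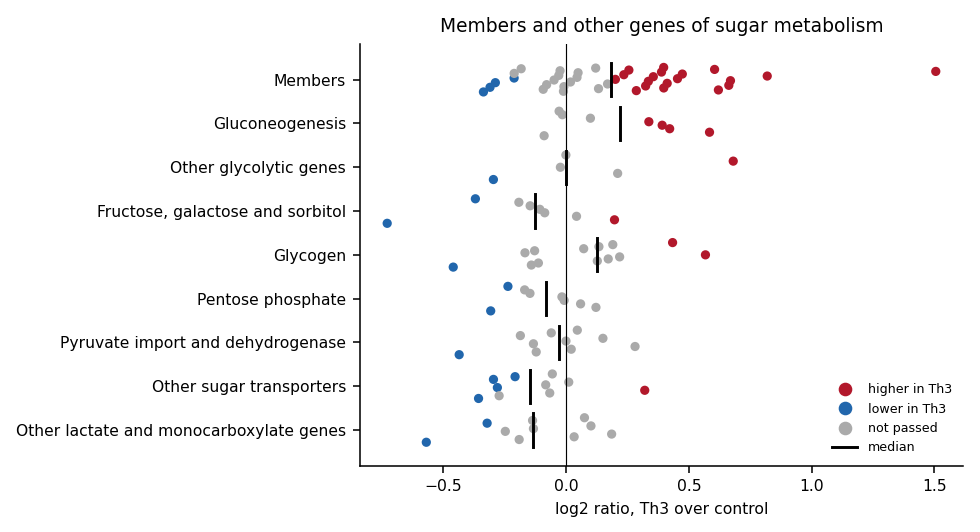
Log2 ratio of Th3 over control for the 38 members (top row) and for the measured genes of 8 further lists; each point is the mean of 4 arrays for 1 gene, red where higher and blue where lower in Th3 at an adjusted p under 0.05, and the black bar is the median of the row. The members and gluconeogenesis have the highest medians, 0.18 and 0.22, and Slc16a3 is the rightmost point.

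Some markers of cell types that a kidney sample can hold were called as well, and their part in the members' ratios was not tested. Of all genes, 10.9% were higher and 10.6% lower, which is the background for every marker list below. In bulk RNA, more cells of a type and more RNA per cell cannot be told apart. Of 9 proximal tubule markers 6 were lower and 1 was higher, and their summed intensity was 312763 to 359611 in Th3 samples and 368669 to 423972 in control samples, without overlap. Of 7 measured erythroid markers 6 were higher (log2 ratios of 0.24 to 0.48 over all 7), with summed intensities of 2103 to 2943 in Th3 samples and 1589 to 2814 in control samples. Of 5 neutrophil markers 2 were higher, with sums of 1154 to 1944 in Th3 samples and 649 to 1686 in control samples. Macrophage markers were lower for 5 of 7, with sums of 3395 to 4626 in Th3 samples and 4590 to 6132 in control samples, and lymphocyte markers for 4 of 7, with sums of 892 to 1170 in Th3 samples and 992 to 1572 in control samples. Without the dye term 6.25% of all genes were higher and 5.03% lower. The lower calls were then 4 for proximal tubule and 3 for macrophages, and all 4 lymphocyte calls were lost. The higher calls were then 4 for erythroid cells and 1 for neutrophils.

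Brown fat and adipocyte genes differed in both directions, 2 of 8 higher and 2 lower (1 and 1 without the dye term), with summed intensities of 75622 to 100631 in Th3 samples and 35304 to 132269 in control samples. Ucp1, the defining gene of brown fat, was lower, with log2 ratios of -4.02, -2.01, -3.78 and -3.80. Cidea was also lower, at -1.11 ± 0.95 (adjusted p = 0.0060). The 2 higher genes were Adipoq at 1.00 ± 1.02 (adjusted p = 0.0410) and Retn at 0.64 ± 0.35 (adjusted p = 0.0066). For skeletal muscle, the usual source of Pfkm, Pgam2 and Eno3, 10 markers were listed. Of these, Ckm, Myh4, Tnnt3 and Mb did not pass the probe filter and were not tested. The 6 muscle markers that were tested did not pass and had summed intensities of 900 to 910 in Th3 samples and 919 to 1088 in control samples. Of the other nephron segments, 1 of 5 collecting duct markers was higher, with sums of 37220 to 53129 in Th3 samples and 27161 to 41781 in control samples. Of 6 markers of the loop of Henle and distal tubule 1 was lower, with sums of 197430 to 272201 in Th3 samples and 219770 to 289168 in control samples, and the 4 podocyte markers did not pass, with sums of 2918 to 3029 in Th3 samples and 2959 to 3680 in control samples.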

How the data were processed

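Kidney RNA of 4 Th3 and 4 control samples was measured on 4 two-colour arrays of design 014868, whose annotation is on mm8. Per the file headers, Agilent Feature Extraction 9.5.3.1 gave spot and background intensities and processed intensities, and the log10 ratio of Cy5 over Cy3, which was used to check the direction of each ratio. The authors deposited log2 ratios per array and a signed fold, a score whose rule is not stated. The authors also deposited an adjusted p-value per spot, from a test that the sources used here do not name. The 4 arrays share 1 slide, so slide could not be tested as a batch. Groups and dyes were taken from the labels.

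With R 4.3.3, limma 3.58.1 and data.table (version 1.17.8), mean signals were corrected with normexp (offset 50) and normalised by within-array loess (span 0.3, 4 iterations). Control spots were left out, as were flagged outlier spots (186 or fewer per array). Of 41174 probes, 26447 were kept: well above background in all 4 Th3 or all 4 control channels, with a value on at least 3 arrays. Each gene was read from its brightest kept probe. Probes other than the members' were named through RefSeq accessions, symbols and synonyms. Ratios of 17638 genes were fitted with lmFit and eBayes on a Th3 and a dye term (2 residual and 4.51 prior degrees of freedom), with a threshold of 0.05 on the p-value after Benjamini-Hochberg adjustment. The dye term was called for 172 genes. The fit was tested on data simulated with independent noise of the size seen within pairs and a constant dye shift, as the fit itself assumes. That test does not cover other differences between the pairs of arrays. The members and the gene lists were chosen with earlier results of these data known. Named genes are all members and, of each other list, at most 3 called genes by size, besides Pck1, which was not tested. The Gapdh pair of probes was added to the printed sequences after its values were seen. Probes of 4 uncalled members whose probes differ in sign are not printed. Alternatives changed the background, normalisation, filter, dye term, probe rule, variance model, value source or left out an array.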

Additional observations from a re-analysis of the deposited data

Results flagged for a closer look

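Among the 38 members, 2 had an array standing apart from the other three by Dixon's ratio over 4 arrays, where chance flags about 1 group in 20. Slc2a8 had a log2 ratio of 0.1631 on array 2, against -0.10 to -0.06 on the others. Pdk3 had a log2 ratio of 0.4645 on array 3, against -0.15 to -0.10 on the others, and its dimmer probe was also above 0 on array 3 only. Neither gene passed the limma test.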

How the results depend on the processing

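The 38 members were recomputed under 16 alternatives. Of these values, 541 kept their side of the threshold, 64 calls were lost, 3 were gained (Slc2a4 with the mean of the kept probes and without array 4, Ldhb without array 3), and no call changed direction. Without the dye term, 1103 genes were higher and 888 lower, 11 members were higher and 2 lower, and 6 genes of the other lists were lower. With the array pairs as a random block in place of the dye term (consensus correlation 0.183), 645 genes were higher and 553 lower, 5 members were higher and 0 lower (20 and 5 at an unadjusted p under 0.05 in limma, where 13.3% of all genes were higher and 11.7% lower), and 3 genes of the other lists were higher and 3 lower. Under median centring 1148 genes and 2 members were lower, and 62.8% of all calls were increases, against 50.8% with loess; the median of all genes moved to 0.02. Leaving out each array in turn gave 14 to 16 members higher and 1 to 4 lower, 1325 to 1614 genes higher and 1247 to 1582 lower, and 8 to 9 genes of the other lists higher and 8 to 11 lower; without array 1 only Pgam2 was called lower. The cause of these changes was not tested, except that leaving out an array leaves fewer samples. It also leaves 1 array alone in its dye orientation, so a gene's own spread then comes from the other 2 arrays. The other lists were recomputed only without the dye term, with the random block and without each array. Each ratio is already a difference within 1 Th3 and control pair, so the fit on ratios is itself paired by array, and no further pairing was made. Dim probes, such as those of Slc2a3, Hk3 and Gapdh, limit the size of a ratio: Hk3 was -0.63 with processed signals.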
